A study of Mus musculus with 2 samples.

Results

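The brush-border peptidases and aspartoacylase formed a set of 9 genes, Cpm, Anpep, Dpp4, Enpep, Mme, Mep1a, Mep1b, Ggt1 and Aspa, out of 27670 named genes on the array. Its members were taken as the non-control spots whose gene name in the scanner files equals one of these symbols, which gave 14 probes with 1 spot each, of 41174 probes. The set was put together with the array ratios of these genes already known, so the ratios are given as a description with no test and support nothing further. Of the 9 genes, 6 had a probe bright enough to be tested, among 15267 tested genes. A gene could pass through the brighter fraction alone, as Mme did, so the 6 do not stand for all 9.

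Both fractions came from GIF-5, a line of gastric epithelial cells of the mouse with the genotype Runx3-/-p53-/-, and so both carry the loss of Runx3 and p53. The cells were grown in DMEM with bovine serum and sorted by flow cytometry after staining with a phycoerythrin-labelled antibody against CD133. On each of 2 Agilent 2-colour arrays, RNA of CD133-positive cells was labelled with Cy3 and RNA of CD133-negative cells with Cy5. According to the labels these are biological replicates 1 and 2. Whether each had its own culture and sort is not given there, so p-values rest on the spread between these arrays, which may be technical. For each gene that spread was moderated by the spread over all tested genes, with 1 residual and 2.87 prior degrees of freedom. GIF-5 is a single line, and whether it is a single clone is not given in the labels. A dye effect cannot be told apart from the fraction, because no array had the dyes exchanged.

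Brush-border peptidases sit on the apical microvilli of enterocytes and kidney tubule cells with their active sites facing the lumen. They cut peptides down to amino acids and small peptides, which neighbouring transporters carry into the cell, and they also inactivate peptide hormones at the cell surface. Aspartoacylase is not a peptidase of the membrane but a soluble enzyme that splits N-acetylaspartate into acetate and aspartate, best known from the brain, where its loss causes Canavan disease.

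Cpm and Aspa were far brighter in CD133-positive than in CD133-negative cells on both arrays, at 29.2-fold and 31.4-fold. Mep1a, Anpep and Ggt1 lay slightly below 0 on both arrays, at 1.51-fold, 1.22-fold and 1.24-fold lower, Mme lay near 0, and Dpp4, Enpep and Mep1b were too dim to be tested. A ratio is log2 of the CD133-positive over the CD133-negative signal within an array, with the mean of the 2 arrays ± SE (moderated, n = 2), and signals are deposited processed signals in the linear units of the scanner program. A gene is called where its adjusted p from limma, over all tested genes, is below 0.05. By that rule, 2 of the 6 tested members were called, both higher, against 1.68% of all tested genes called in either direction and 1.4% called higher. The same 2 were at least 2-fold higher on both arrays, as were 2.5% of tested genes. In the setting reported, 0 members were 2-fold lower on both, against 2.11%. By the authors' deposited log10 ratio of CD133-negative over CD133-positive, Ggt1 was at 0.35 and 0.34, so more than 2-fold lower on both arrays. Nothing is read from these counts, since the members were chosen on the same contrast. The median of the 6 members was -0.16, beside -0.03 over all tested genes, and relative to all genes that of the members changed sign when arrays were centred on their median in place of loess.

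**Figure D1:**
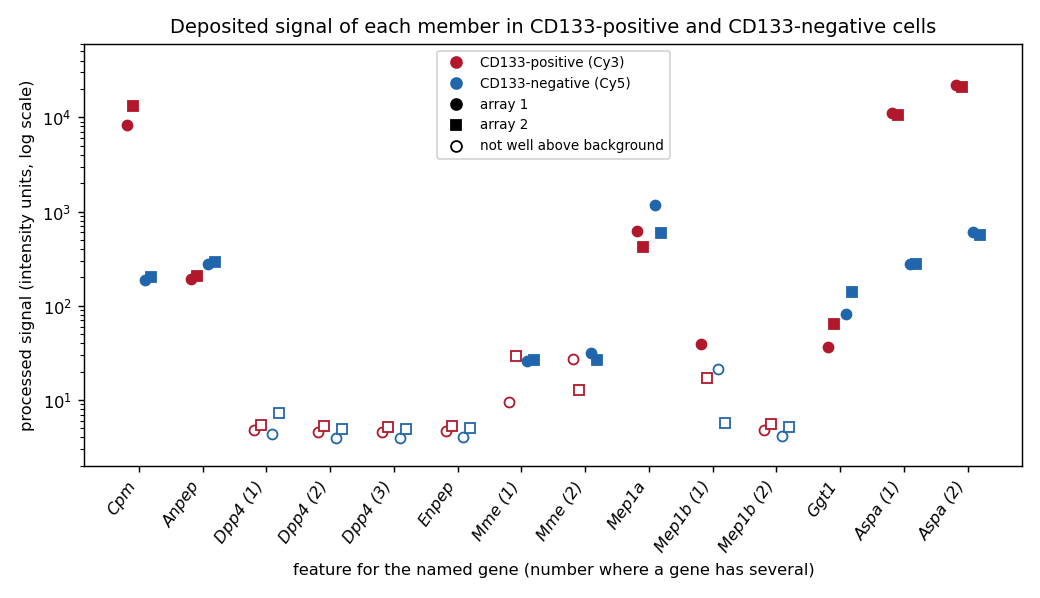
Deposited processed signal (log axis) of each member probe in CD133-positive and CD133-negative cells, 1 point per array and fraction. Cpm and Aspa stand between 8189 and 22200 in CD133-positive cells and between 185.8 and 600.3 in CD133-negative cells, and no other member separates the fractions as widely.

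The sort could be read from Prom1, the gene of CD133. Its brighter probe read 1545 and 1553 in CD133-positive cells on arrays 1 and 2, and 4.22 and 4.40 in CD133-negative cells, the latter pair not well above background. The difference was at least 11.96-fold, a bound set by the lowest signal among probes well above background. No spot was saturated. Between 23498 and 25213 spots per array and channel were well above background, the median SD of a gene between arrays was 0.18, and 72.3% of tested genes had the same sign on both. The precision is limited by the number of arrays.

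Cpm encodes carboxypeptidase M, an enzyme held on the outer membrane face by a lipid anchor that removes a C-terminal lysine or arginine from peptides such as kinins. Its probe read 8189 on array 1 and 13190 on array 2 in CD133-positive cells. In CD133-negative cells it read 185.8 and 202.8. The fractions did not overlap, and all 4 values were well above background. The log2 ratio was 4.65 on array 1 and 5.09 on array 2, with a mean of 4.87 ± 0.18, or 25.1-fold and 34.0-fold. The authors' deposited log10 ratio, which is CD133-negative over CD133-positive, was -1.64 and -1.81. Over the alternative settings the mean ranged from 4.06 to 5.74. A further probe, listed in the files as E030045M14Rik, a synonym of Cpm in RefSeq, was outside the rule for members. It was not well above background in either fraction, reading 6.35 and 9.36 in CD133-positive and 5.19 and 6.96 in CD133-negative cells.

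The probe of Cpm lies at chr10:117196244-117196303 in the coordinates of the scanner files, whose genome build is not given in the sources used here. Those coordinates are not to be set beside RefSeq's. The promoter that RefSeq gives for Cpm (GRCm38.p6, chr10:117629250-117629549, plus strand) holds the 250 bases before and 50 after the start of the gene. It is shown because Cpm and Aspa had ratios of like size while these windows differ in make-up, and capitals mark every match to a motif searched on either strand.
Cpm: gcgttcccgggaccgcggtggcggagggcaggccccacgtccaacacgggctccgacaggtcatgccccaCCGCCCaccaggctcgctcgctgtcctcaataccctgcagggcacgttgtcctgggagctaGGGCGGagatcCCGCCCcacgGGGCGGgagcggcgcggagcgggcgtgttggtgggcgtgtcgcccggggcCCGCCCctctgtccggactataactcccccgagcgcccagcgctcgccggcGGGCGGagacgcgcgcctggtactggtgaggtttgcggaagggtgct
In this window 73.7% of bases were G or C and the CG dinucleotide occurred 37 times. Of the 32817 RefSeq promoter windows, 94.9% had a lower GC content and 94.4% fewer CG dinucleotides, with medians of 52.7% and 7. The 6 capitalised matches are all GC boxes (GGGCGG, or CCGCCC where it lies on the minus strand), the first letters standing at -180, -119, -108, -98, -48 and 4 from the start. A GC box was present in 35.6% of all windows.

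Aspa was measured by 2 probes. The brighter probe read 22200 and 21080 in CD133-positive cells on arrays 1 and 2, and 600.3 and 561.8 in CD133-negative cells. Its log2 ratio was 5.004 and 4.94, with a mean of 4.97 ± 0.14. The other probe read 11070 and 10480 against 276.1 and 275.6, a log2 ratio of 4.87 and 4.72 with a mean of 4.79, or 27.7-fold. Both probes separated the fractions on both arrays with no overlap. The mean of the brighter probe ranged from 4.05 to 5.22 over the alternative settings. In the coordinates of the files the brighter probe lies at chr11:73387123-73387182, and the other spans chr11:73395145-73401381, a stretch of 6237 bases on the same minus strand, so its ends lie far apart in the genome.

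RefSeq's promoter window of Aspa on the minus strand of chr11:73324588-73324887 (GRCm38.p6) is shown beside that of Cpm for contrast.
Aspa: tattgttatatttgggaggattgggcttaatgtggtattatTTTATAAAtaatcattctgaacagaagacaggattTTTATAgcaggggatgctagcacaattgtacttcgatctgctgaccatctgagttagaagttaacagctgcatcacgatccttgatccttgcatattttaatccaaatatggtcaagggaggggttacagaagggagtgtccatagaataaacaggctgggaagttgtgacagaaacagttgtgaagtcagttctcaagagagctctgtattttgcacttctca
This window was 39% G or C with 2 CG dinucleotides. Only 8.39% of all windows had a lower GC content and 14.1% fewer CG dinucleotides. The capitals are matches to TATAAA at -209, -207 and -174, of which the first and the last lie on the minus strand and the first overlaps the second. That motif was present in 13.6% of all windows. Neither window held the other's motif, and a match in these letters is a description, not a binding site.

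Mep1a encodes the alpha subunit of meprin, a metalloendopeptidase of the astacin family that reaches the membrane through its partner, the beta subunit made from Mep1b. The Mep1a probe read 617.3 and 418.8 in CD133-positive cells and 1169 and 588.5 in CD133-negative cells, so CD133-positive cells were lower within each array. Across arrays the fractions overlapped, since 588.5 on array 2 lay below 617.3 on array 1. The log2 ratio was -0.74 and -0.45, with a mean of -0.60 ± 0.15. It stayed below 0 in each setting tried, from -1.24 to -0.45, and relative to the median of all genes from -0.72 to -0.41. Of the 2 probes of Mep1b, the first was well above background only in CD133-positive cells of array 1, where it read 39.5, and it read 17.2 on array 2. In CD133-negative cells the same probe read 21.4 and 5.76, and the second probe was not well above background in any channel. Mep1b was therefore not tested.

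Mep1a is shown as a member that was well above background in both fractions, with its RefSeq promoter window on the minus strand of chr17:43502724-43503023 (GRCm38.p6).
Mep1a: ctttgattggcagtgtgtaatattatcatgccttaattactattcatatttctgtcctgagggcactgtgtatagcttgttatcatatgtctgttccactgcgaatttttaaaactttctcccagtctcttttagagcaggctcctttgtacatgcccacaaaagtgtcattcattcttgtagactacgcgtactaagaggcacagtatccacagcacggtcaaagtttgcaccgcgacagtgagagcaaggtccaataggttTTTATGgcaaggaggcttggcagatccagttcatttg
Here 42.3% of bases were G or C, with 6 CG dinucleotides. The capitals are the CDX motif TTTATG at position 14, present in 11.9% of all windows. For 8 members RefSeq gave a total of 13 windows, and Mep1b had no entry. None of the 13 held the HNF4 motif CAAAGTCCA, present in 0.475% of all windows. The GATA motif AGATAA, present in 11.2% of all windows, occurred in 1 window of Dpp4 and 1 of Ggt1. The absence of a match says only that its letters are not in these windows. The window of Anpep, whose ratio was -0.29, was also rich in G and C, at 72.3% with 28 CG dinucleotides and 4 GC boxes.

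Of the aminopeptidases and dipeptidyl peptidases in the set, Anpep alone was bright enough to test. Anpep encodes aminopeptidase N, or CD13, which takes neutral amino acids off the N-terminus. Its probe read 192.2 and 206.5 in CD133-positive cells and 278.6 and 291.0 in CD133-negative cells, with no overlap. The log2 ratio was -0.29 on each array, with a mean of -0.29 ± 0.14, and ranged from -0.75 to -0.09 over the settings. The -0.75 came with centring over all probes, where the median of all genes was -0.74 and the ratio relative to it -0.0078. Relative to all genes the range of Anpep was -0.50 to -0.0078. Dpp4, which removes N-terminal dipeptides ending in proline or alanine and inactivates incretin hormones, was represented by 3 probes with signals of 4.53 to 5.48 in CD133-positive and 3.92 to 7.36 in CD133-negative cells. Enpep, the gene of aminopeptidase A, which acts on angiotensin II, read 4.70 and 5.35 against 4.04 and 4.99. Neither Dpp4 nor Enpep was well above background in any channel, so for these members no difference was measured.

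Mme encodes neprilysin, or CD10, a membrane endopeptidase that degrades natriuretic peptides and enkephalins. Neither of its probes was well above background in CD133-positive cells, and both were in CD133-negative cells. The probe that represents the gene read 27.3 and 12.7 in CD133-positive cells and 31.4 and 26.2 in CD133-negative cells. Its log2 ratio was 0.02 and -0.08, with a mean of -0.03 ± 0.14, so the arrays lay on both sides of 0. The sign of Mme depended on the processing, with -0.63 from the deposited processed signals and 0.68 when arrays were centred on the tested genes.

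Ggt1, the gamma-glutamyltransferase that starts the breakdown of extracellular glutathione, read 36.5 and 64.6 in CD133-positive cells and 81.3 and 141.1 in CD133-negative cells. Within each array CD133-positive cells were lower, and the lowest CD133-negative value, on array 1, lay above the highest CD133-positive value, on array 2. The log2 ratio was -0.20 and -0.41, with a mean of -0.31 ± 0.15. From the deposited processed signals it was -1.14, and with centring on the tested genes it was 0.16. Relative to the median of all genes it reached 0.24, so the direction of Ggt1 also depended on the processing.

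**Figure D2:**
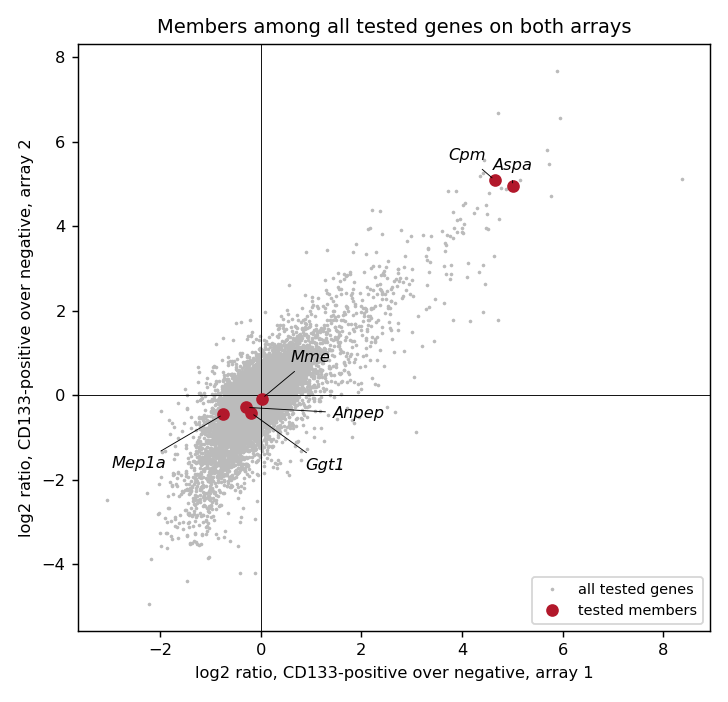
Log2 ratio of CD133-positive over CD133-negative cells on array 1 (x axis) and array 2 (y axis) for the tested genes, with the tested members named. Cpm and Aspa lie at 4.65 and 5.004 on array 1 and at 5.09 and 4.94 on array 2, and the other 4 tested members lie between -0.74 and 0.02 on array 1 and between -0.45 and -0.08 on array 2.

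The genes whose pair of array ratios lay nearest to Cpm were Slc28a2, a nucleoside transporter, Emb, the membrane protein embigin, and Fabp2, the intestinal fatty acid-binding protein, at distances of 0.21, 0.28 and 0.30 on the log2 scale. For Aspa they were Fabp2, 0610040J01Rik and Slc28a2, at 0.14, 0.21 and 0.24. Fabp2 had log2 ratios of 4.87 and 4.89, and Slc28a2 had 4.77 and 4.92. The nearest genes of the other members were Prpf38b, Zfp267 and Lyn for Anpep, Marveld2, Cdk8 and Plekho1 for Mep1a, Mss51, Atp6v0a2 and Slc33a1 for Ggt1, and Gtf2ird1, Tssk4 and Pcbp2 for Mme, none of them called. Each distance rests on 2 values, so closeness says little where many genes lie near 0.

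Other membrane peptidases of brush borders were mostly too dim to test. Of 15 listed genes 14 were on the array and 4 were tested, with 0 called by limma (3 at an unadjusted p below 0.05) and a median of 0.31. Among them were Ggt6, a relative of Ggt1, at 0.82 ± 0.29 (1.32 and 0.31), the dipeptidyl carboxypeptidase Ace at -0.02 ± 0.14 and Ggt7 at -0.46 ± 0.15. The dipeptidases Dpep1, Dpep2 and Dpep3, the folate hydrolase Folh1 and the enteropeptidase gene Tmprss15 were among the 10 that had no tested probe. Of 31 relatives of the members in the same peptidase families, 19 were tested and 0 were called by limma (7 at an unadjusted p below 0.05), with a median of 0.06 that lay on the other side of the median of all genes under both median centrings and with no brightness filter. Bmp1, an astacin-family procollagen protease, was at -1.22 ± 0.17 (limma adjusted p = 0.066) and at -0.07 by its dimmest tested probe, so its probes disagree. Its brighter probe read 992.3 and 900.8 against 2181 and 2600. The carboxypeptidase E gene Cpe, a family relative of Cpm, had -0.67 and -2.16 with a mean of -1.41 ± 0.40 (limma adjusted p = 0.13). Other relatives lay above 0, with Cpd at 0.65 ± 0.14 (0.67 and 0.63) and Erap1 at 0.97 ± 0.14 (0.99 and 0.94). Across these relatives 8 genes were above 0 and 7 below 0 on both arrays, against 32.6% and 39.7% of all tested genes. Among 21 cytosolic and lysosomal peptidases, all tested, 0 were called by limma (8 at an unadjusted p below 0.05) and the median was -0.21, with cathepsin H, Ctsh, at 2.26 ± 0.31 (limma adjusted p = 0.066) and cathepsin C, Ctsc, at -2.08 ± 0.43 (limma adjusted p = 0.091). The endopeptidase neurolysin, Nln, was at -1.09 ± 0.16 (limma adjusted p = 0.070), with -0.91 and -1.27 on the arrays.

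The protein scaffold of the microvillus, on which brush-border enzymes sit, held 3 called genes among 24 tested of 26, each brighter in CD133-positive cells, and the median of the list was 0.18. Eps8l3, a relative of the actin-capping protein Eps8, was higher by 2.80 ± 0.16 (limma adjusted p = 0.018), reading 7590 and 8007 in CD133-positive cells against 860.4 and 1098. Anks4b, which links protocadherins at microvillus tips, was higher by 1.71 ± 0.14 (limma adjusted p = 0.032), and the actin nucleator Cobl by 1.39 ± 0.14 (limma adjusted p = 0.046). Myo1a, the brush-border myosin, was at 1.35 ± 0.25 and did not pass (limma adjusted p = 0.083), with 0.63 by its dimmest tested probe. The genes of the list that lay lowest were Tmigd1, at -1.29 and -3.47, the actin bundler Fscn1, at -1.44 and -2.55, and the scaffold protein Slc9a3r2, at -0.74 and -1.38, none of them called. Across the list 12 genes were above 0 and 9 below 0 on both arrays, against 32.6% and 39.7% of all tested genes. The direction of the called genes of this and the following lists held in all settings run. Without moderation of the variance none of them was called, with limma adjusted p from 0.39 to 0.53, and with no brightness filter Fabp2 was the only one still called. With the dimmest tested probe Cobl, Slc15a2, Cdh5 and Trpv3 lost their calls, and against a log2 fold of 0.5 these and Anks4b did, with limma adjusted p of 0.061 to 0.11.

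**Figure D3:**
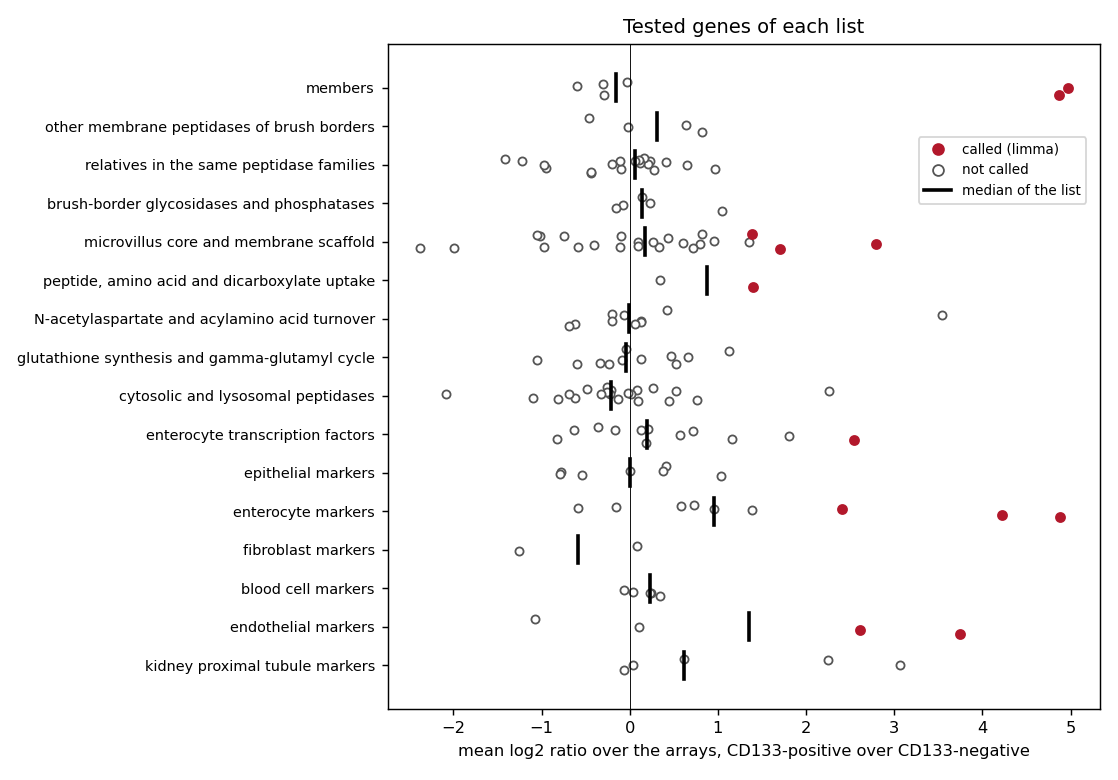
Mean log2 ratio over the 2 arrays of every tested gene in each list, with called genes filled and the median of the list as a bar. Called genes occur among the members, the microvillus, uptake, transcription factor, enterocyte and endothelial lists, and the largest ratios in the plot, from 4.22 to 4.97, belong to Cpm, Aspa, Fabp2 and Apoa1.

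Partners of the peptidases in digestion and uptake were largely dim. Of 11 transporters of peptides, amino acids and dicarboxylates, 2 were tested. The peptide transporter Slc15a2 was higher by 1.40 ± 0.14 (limma adjusted p = 0.044), reading 294.4 and 374.3 against 21.6 and 26.9, and its ratio reached 3.78 in the settings run. Slc3a1, a subunit of the cystine transporter, was at 0.34 ± 0.14. The intestinal peptide transporter Slc15a1 was not well above background in any channel. Of 10 brush-border glycosidases and phosphatases, 5 were tested and 0 called by limma (1 at an unadjusted p below 0.05), with a median of 0.14 that fell below that of all genes without array 1. Enpp3, an ectonucleotide pyrophosphatase, was highest at 1.05 ± 0.19 (limma adjusted p = 0.083), while sucrase-isomaltase, Sis, and trehalase, Treh, were not well above background.

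In the setting reported, the pathways of Aspa and Ggt1 held no called gene. Of 13 genes of N-acetylaspartate and acylamino acid turnover, 10 were tested and 0 called by limma (3 at an unadjusted p below 0.05), with a median of -0.00, whose side of the median of all genes changed in 4 settings. Nat8l, the enzyme that makes N-acetylaspartate, was not well above background in either fraction. Acss1, which turns acetate into acetyl-CoA in mitochondria, had 4.46 and 2.64 with a mean of 3.55 ± 0.48 and did not pass (limma adjusted p = 0.066). In 5 alternatives Acss1 was called higher, among them the offset of 16, the deposited processed signals and the value table. The latter pair holds the same ratios, and the ratio of Acss1 ran from 2.64 to 6.47 over the settings. It read 2984 and 895.7 in CD133-positive cells against 25.2 and 13.5, and the CD133-negative fraction was well above background on 1 array. Of 11 genes of glutathione synthesis and the gamma-glutamyl cycle, all were tested and 0 called by limma (6 at an unadjusted p below 0.05), with a median of -0.04, whose side of the median of all genes changed in 2 settings. The glutathione-degrading cyclotransferase Chac2 was highest at 1.13 ± 0.14 (limma adjusted p = 0.060), and the 5-oxoprolinase gene Oplah lowest at -1.05 ± 0.25 (limma adjusted p = 0.11), a value that was -0.0088 by its dimmest tested probe.

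Transcription factors of enterocytes had 1 called gene among 12 tested of 15, with a median of 0.20. Isx, an intestine-specific homeobox factor, was higher by 2.54 ± 0.19 (limma adjusted p = 0.028), reading 2208 and 2013 against 346.4 and 146.2. Gata6 was at 1.803 ± 0.22 (limma adjusted p = 0.059) and Gata4 at 1.16 ± 0.17 (limma adjusted p = 0.070), neither called. Gata6 was called higher in 6 alternatives and Gata4 in 4, while by its dimmest tested probe Gata6 was at 0.70. Hnf4a and Cdx2, named for their known part in brush-border genes after their values were seen, were at 0.57 ± 0.15 and 0.19 ± 0.15.

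Markers of cell types were measured beside these results. Of the epithelial markers, Krt8, Krt18, Krt19 and Cdh1 were well above background in both fractions. Epcam and Cldn4 were not well above background in CD133-positive cells, and Esrp1 was so in neither fraction. Epcam, Cldn4 and Esrp1 had no tested probe. Of 10 epithelial markers 7 were tested and 0 called by limma (4 at an unadjusted p below 0.05), with a median of 0.00. Elf3, an epithelial transcription factor, was highest at 1.03 ± 0.14 (limma adjusted p = 0.066), and Cdh1 was at 0.42 ± 0.21. Cldn7 was at 0.38 ± 0.15, or at least 1.3-fold higher, as the CD133-negative fraction was not well above background. Krt8, Krt18 and Krt19 were at -0.78, -0.54 and -0.79. The summed signal of the list, most of it from these keratins, was 605700 and 590400 in CD133-positive against 756900 and 768200 in CD133-negative cells. Of 10 enterocyte markers 9 were tested and 3 called, all higher, with a median of 0.95. Fabp2 was higher by 4.88 ± 0.14 (limma adjusted p = 0.0095), the apolipoprotein gene Apoa1 by 4.22 ± 0.20 (limma adjusted p = 0.014) and the lectin gene Lgals4 by 2.41 ± 0.14 (limma adjusted p = 0.018). By its dimmest tested probe Fabp2 was at 2.71. The liver-type binding protein gene Fabp1 was at 2.08 and 0.69, with a mean of 1.39 ± 0.38, and was not called (limma adjusted p = 0.12). Across the list 7 genes were above 0 on both arrays and 1 below, against 32.6% and 39.7% of all tested genes. The 1 below was Cdh17, at -0.02 and -1.16, while Alpi was at 0.15 and -0.46. Summed over the 10 markers, the signal was 177700 and 160500 in CD133-positive and 36260 and 35520 in CD133-negative cells. Most of it came from Lgals4, and Sis was not well above background. The part of these markers in the ratios of Cpm and Aspa was not tested. In such bulk fractions more cells of a type and more RNA per cell cannot be told apart.

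Endothelial markers also moved with the fraction in part. Of 10 markers 4 were tested and 2 called, Vwf at 3.75 ± 0.15 (limma adjusted p = 0.012) and Cdh5 at 2.61 ± 0.25 (limma adjusted p = 0.043), the latter at least 5.81-fold higher, as the CD133-negative fraction was not well above background. The other tested markers were Egfl7, at 0.29 and -0.08, and Esam, at -0.74 and -1.40 with a mean of -1.07 ± 0.22 (limma adjusted p = 0.090). Over the settings the ratio of Cdh5 ran from 1.23 to 7.37 and that of Vwf from 2.71 to 4.48. The summed signal was 10680 and 12940 in CD133-positive against 5713 and 6849 in CD133-negative cells. The CD133-negative sums came mostly from Egfl7, which read 6285 and 5831 in CD133-positive and 5135 and 6044 in CD133-negative cells. Pecam1, Kdr, Tek, Tie1, Cldn5 and Emcn were not well above background in either fraction. Several members are abundant in kidney tubules. Of 10 markers of these tubules, 5 were tested and 0 called by limma (2 at an unadjusted p below 0.05). Cubn was at 3.07 ± 0.48 and Aqp1 at 2.25 ± 0.41. Lrp2 was at -0.48 and 1.72, on both sides of 0, Slc22a8 at 0.03 ± 0.14 and Miox at -0.06 ± 0.14. The sum of the list, most of it from Cubn and Aqp1, was 19820 and 39390 against 3711 and 6817, and Slc34a1, Slc5a2, Slc22a6, Umod and Kap were not well above background. Blood cell markers, with 5 of 10 tested, summed to 466.4 and 473.9 against 273.7 and 399.0, with Ptprc, Itgam and Adgre1 not well above background. Fibroblast markers, with 2 of 10 tested, summed to 206.1 and 296.0 against 457.6 and 673.5, the CD133-negative sums mostly from Col1a1. Col1a1 was at -1.25 ± 0.18 (limma adjusted p = 0.067). Col1a2, the other tested marker, was at 0.08 ± 0.14, with 0.13 and 0.03 on the arrays. Limma called 0 genes of the blood cell and fibroblast lists (at an unadjusted p below 0.05, 0 blood cell and 1 fibroblast marker). The part of these cell types in the members' ratios was not tested.

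Genes next to the members on the chromosome, by the order of protein-coding genes in RefSeq (GRCm38.p6, 3 on each side), numbered 54. Of these, 30 were tested and 1 was called, beside 1.68% of all tested genes, and nothing is read from this count. The called gene was Trpv3, a cation channel of epithelia and the immediate neighbour of Aspa. Trpv3 had log2 ratios of 4.09 and 2.80 and a mean of 3.45 ± 0.36 (limma adjusted p = 0.047). It read 2040 and 932.3 in CD133-positive cells and 7.84 and 4.94 in CD133-negative cells, where it was not well above background, so the difference was at least 9.52-fold. Trpv3 was singled out after its values were seen, its ratio ran from 2.80 to 7.79 over the settings, and its adjusted p in limma ranged from 0.016 with an intensity trend to 0.53 without moderation. Shpk, a sugar kinase gene on the same side of Aspa, was at 1.41 and 0.95 with a mean of 1.18 ± 0.18 and was not called (limma adjusted p = 0.071). Beside Cpm, the tested neighbours lay between -0.02 (Cpsf6) and 0.70 (Slc35e3), with Mdm2, the gene directly after it, at 0.52 ± 0.16, and none was called. Lrrc75b, next to Ggt1, was the only other neighbour at least 2-fold different on both arrays, at -1.15 and -2.84 (limma adjusted p = 0.10).

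**Figure D4:**
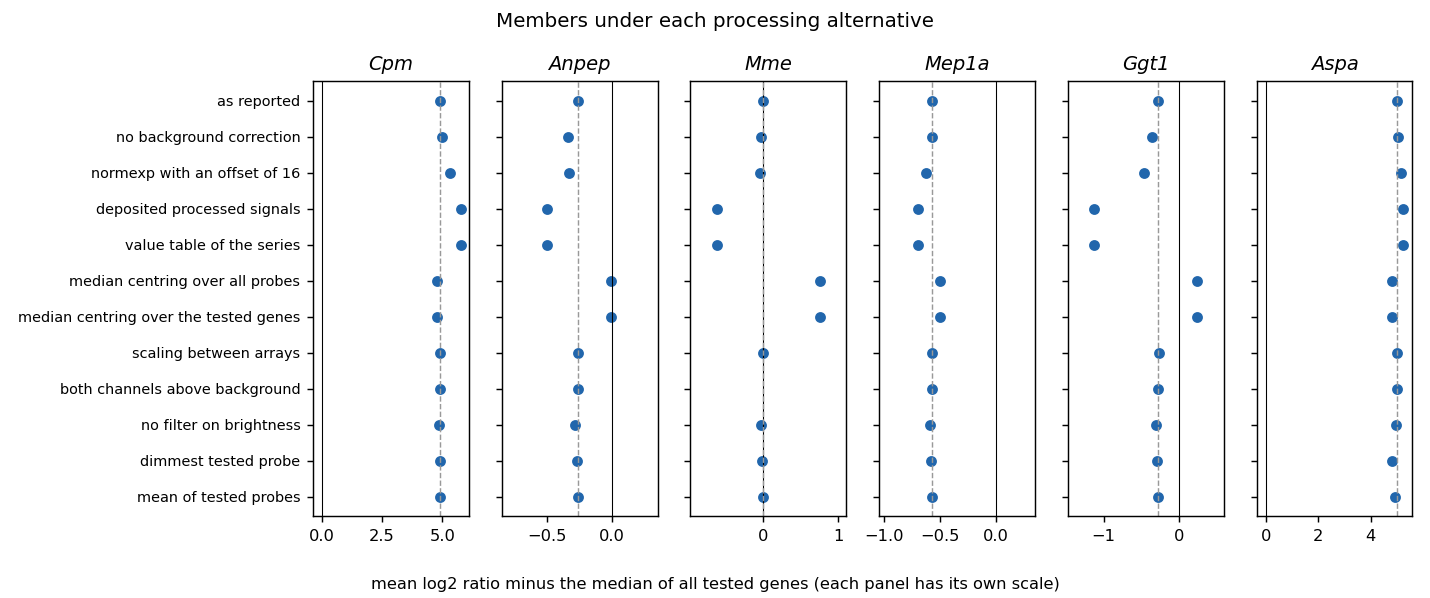
Mean log2 ratio of each tested member minus the median of all tested genes (x axis, a scale per panel), in the setting reported (dashed line) and in the alternatives (rows). Cpm and Aspa lie between 4.67 and 5.76, Mep1a between -0.72 and -0.41, and Anpep reaches -0.0078, while Ggt1 and Mme lie on both sides of 0.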

How the data were processed

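The 2 scanner files were written by Agilent Feature Extraction (version 9.5.3.1, as their headers state). Deposited spot and background intensity values are unnormalised, and deposited processed signals, also an intensity, were background-subtracted and dye-normalised by that program per the file headers. In the same files, a deposited log10 ratio is red over green, so CD133-negative over CD133-positive, and equals the series' value table in all 45018 spots of both arrays. Deposited p-values per spot were not used. Both arrays lie on 1 slide with 1 scan time per the file headers.

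Spot intensity was corrected by normexp (offset 50) and normalised within arrays by loess with control spots at weight 0. The offset shrinks ratios of dim spots. A probe was tested if well above background in either channel on both arrays without outlier flags. A gene was its brightest tested probe. Names came from a RefSeq table (22951 probes by accession, 9768 by symbol or synonym, 8455 kept the file's name). Ratios were tested two-sided with limma 3.58.1 in R 4.3.3, with Benjamini-Hochberg adjustment over 15267 genes, a threshold of 0.05, 1 residual and 2.87 prior degrees of freedom, and the code was tested on simulated data. Members and lists were chosen with earlier results of these data known. A gene whose name resolved to Cpox was dropped from the family list. The rule named all members, Prom1, called list genes with up to 4 of largest ratio (at least 1, same direction), and the 3 genes nearest each member. Other list genes are named, after their values were seen, where few of a list were tested or to show those that moved little or oppositely. Some genes of the lists are not reported here.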

Additional observations from a re-analysis of the deposited data

How the results depend on the processing

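Over all tested genes, 214 were called higher and 42 lower (83.6% higher), with 2 members called. These counts became 402 and 157 with an offset of 16, 390 and 93 with the deposited processed signals and with the value table, 484 and 9623 with median centring over all probes, 2043 and 2041 with centring over the tested genes, 368 and 256 with scaling between arrays, 501 and 336 with an intensity trend, 130 and 4 against a log2 fold of 0.5, 30 and 0 with no brightness filter, and 0 and 0 without moderation. The count of lower genes was 109 with no background correction, 73 with both channels above background and 12 with the dimmest tested probe. Limma gave 5470 genes at an unadjusted p below 0.05 with no brightness filter and 1506 without moderation. Centring over all probes moved the median of all genes to -0.74, and 4.79% of calls were then higher. That share was 50% with centring over the tested genes, 59% with scaling, 59.9% with the trend, 71.5% with no background correction, 71.9% with the offset of 16 and 97% against a log2 fold of 0.5, and 100% with no brightness filter. With centring over all probes 4 members were called, Mep1a and Anpep lower besides Cpm and Aspa, and with centring over the tested genes Mme was called higher. With no brightness filter Aspa alone of the members was called (1 member), and without moderation 0 members were. Leaving out an array leaves no test, and the count of genes past 2-fold on the remaining array was 563 to 639 higher and 406 to 1208 lower. Cpm and Aspa kept their direction in all settings run. Of the ratios of other named genes over the alternatives, 300 kept their side of the threshold (or, without an array, stayed within 1 SD), 46 gained a call, 14 lost it and 1 reversed relative to the median of all genes, Oplah at -0.0088 with its dimmest probe. The deposited processed signals and the value table hold the same ratios, yet each counts as an alternative in these tallies. Under the other variance models 17 calls of named genes held and 16 were lost. No paired analysis was possible because each array already compares the fractions within itself and there is 1 group. The cause of these shifts was not tested. A member that is not well above background in a channel has only a bound there.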
